A study of Homo sapiens with 30 samples.

Results

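The transcripts described here are those of the human mitochondrial genome, a small circular DNA that is present in many copies per cell and is read separately from the nuclear chromosomes. They were taken by name, as the genes whose symbol starts with MT- on the mitochondrial chromosome, and all 37 such genes were found among the 57992 genes of the deposited table. The 37 genes comprise 13 mRNAs, 2 rRNAs and 22 tRNAs. Transcription of the heavy strand gives 28 of them (12 mRNAs, both rRNAs and 14 tRNAs), and transcription of the light strand gives the other 9, which are the mRNA MT-ND6 and 8 tRNAs. No measured value entered this rule, although it was set with earlier results of these data known.

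The RNA-Seq data comprised 30 libraries of 2 human cell lines given Omomyc, a miniprotein derived from MYC that inhibits it. The 10 groups held 3 libraries each. HCT116, a colon carcinoma line, was left untreated or received 2 or 10 μM of the protein, for 6 or for 24 h. Ramos, a B cell line from a Burkitt lymphoma that carries a MYC translocation, was left untreated or received 500 nM or 2.5 μM for those times. The lower dose in HCT116 cells is 2 μM in the labels and 2.5 μM in the study's methods. A time tag in the labels reads 4 h for libraries whose titles give 24 h, and 24 h was used. Omomyc was delivered to HCT116 cells with ProteoJuice, a protein transfection reagent. The methods do not say whether untreated HCT116 cells received the reagent, and they describe neither RNA-Seq nor a reagent for Ramos cells, so the effects of Omomyc and of its delivery cannot be told apart. Each line had a single untreated group with no time of its own, which all 4 treated groups of that line share. Nothing in the labels says that replicates came from separate cultures, so p-values measure only the spread between these libraries.

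In human mitochondria, both DNA strands are transcribed as long precursors that cover many genes, and tRNAs placed between the other genes mark most of the sites at which the precursors are cut into mature RNAs. The mRNAs encode subunits of respiratory chain complex I (the MT-ND genes), complex III (MT-CYB), complex IV (MT-CO1, MT-CO2 and MT-CO3) and the ATP synthase (MT-ATP6 and MT-ATP8), while the rRNAs and tRNAs serve the mitochondrion's own ribosomes. MT-ND6 is the sole mRNA of the light strand, so its level can be set beside those of its neighbors on the heavy strand. Because genes of a strand share precursors, their mature levels also depend on processing and decay after transcription.

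The sequences below show why single values of some of these genes need care. The first 4 are tRNA genes, read 5′ to 3′ along the RNA-like strand, with the anticodon in capitals: MT-TA (alanine) and MT-TN (asparagine), the light strand tRNAs with the most reads; MT-TW (tryptophan), their neighbor on the opposite strand, which had almost none; and MT-TE (glutamic acid), which abuts MT-ND6 on the light strand. They lie at chrM:5587-5655 (minus strand), chrM:5657-5729 (minus), chrM:5512-5579 (plus) and chrM:14674-14742 (minus) in GRCh38, GENCODE release 29. Each is shorter than 75 bases. The last pair is the start of MT-ATP6 (chrM:8527-8572, plus strand) and of its nuclear copy MTATP6P1 (chr1:633696-633741, plus strand). These 46 bases are also the end of MT-ATP8, whose reading frame overlaps that of MT-ATP6. The capital marks the only mismatch, G19A, with positions counted from 1 at the 5′ end of MT-ATP6.
MT-TA: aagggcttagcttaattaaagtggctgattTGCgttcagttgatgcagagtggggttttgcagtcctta
MT-TN: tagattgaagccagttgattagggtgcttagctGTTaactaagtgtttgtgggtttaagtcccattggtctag
MT-TW: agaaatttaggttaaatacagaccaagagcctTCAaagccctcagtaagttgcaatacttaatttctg
MT-TE: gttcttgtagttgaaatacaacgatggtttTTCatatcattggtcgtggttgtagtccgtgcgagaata
MT-ATP6: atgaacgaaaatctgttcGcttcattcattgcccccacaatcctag
MTATP6P1: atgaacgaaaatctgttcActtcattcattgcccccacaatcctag

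Levels are given in RPKM, read numbers divided by gene length and by the size of the library, as the authors deposited them. Once multiplied by gene length, 81.8 to 89.9% of the RPKM values of nuclear genes under 400 bases were whole multiples of the value of 1 read, within 0.02 reads, which put the libraries at 18600000 to 43300000 reads, to the nearest 100000. Among HCT116 libraries, the untreated ones were the deepest (39000000 to 43300000 reads), and the 10 μM 6-h libraries held 18600000 to 27100000 reads. Of 7 colon epithelial markers, 6 were higher in every HCT116 library than in any Ramos library, the exception being VIL1, which was listed at 0 to 0.0602 RPKM in HCT116 cells. All 7 B cell markers were higher in every Ramos library. Across the 30 pairs of replicates, Pearson's r over genes was 0.988 to 0.997, and no pair was identical. Libraries were made from total RNA depleted of rRNA by hybridization, so the 2 mitochondrial rRNAs are what remained after depletion.

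The 37 genes spanned a wide range of levels. All 13 mRNAs and both rRNAs were above 0 in all 30 libraries. Of the 22 tRNAs, 15 were above 0 in at least 1 library, and 7 (MT-TI, MT-TD, MT-TK, MT-TG, MT-TR and MT-TT of the heavy strand and MT-TP of the light strand) were listed at 0 in all 30. MT-CO1 and MT-CO3, which encode catalytic-core subunits of complex IV, were the most abundant. MT-CO1 stood at 966, 1176 and 793 RPKM in the 3 untreated HCT116 libraries and at 862, 874 and 785 RPKM in the 3 untreated Ramos libraries. MT-CO3 stood at 963 ± 119 RPKM (SD, n = 3) in untreated HCT116 cells and at 673 ± 37.2 RPKM (SD, n = 3) in untreated Ramos cells. MT-CO2 followed at 291 ± 53.9 and 278 ± 18.3 RPKM (SD, n = 3). The levels of MT-CO1 and MT-CO3 overlapped in untreated HCT116 cells, whereas every other mRNA lay well below these 3 genes in both lines. MT-ND3, a complex I subunit, came next at 123 ± 23.8 RPKM in HCT116 cells and 148 ± 21.7 RPKM in Ramos cells (SD, n = 3). At the low end of the mRNAs were MT-ND6 (30.7 ± 14.0 RPKM) and MT-ND1 (34.8 ± 7.39 RPKM) in HCT116 cells, whose libraries overlapped, and MT-ATP8 (12.8 ± 2.71 RPKM) in Ramos cells (SD, n = 3). The rRNAs lay below all mRNAs in untreated HCT116 cells, with MT-RNR1 (12S) at 2.57 ± 0.224 RPKM and MT-RNR2 (16S) at 4.58 ± 0.997 RPKM (SD, n = 3).

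**Figure D1:**
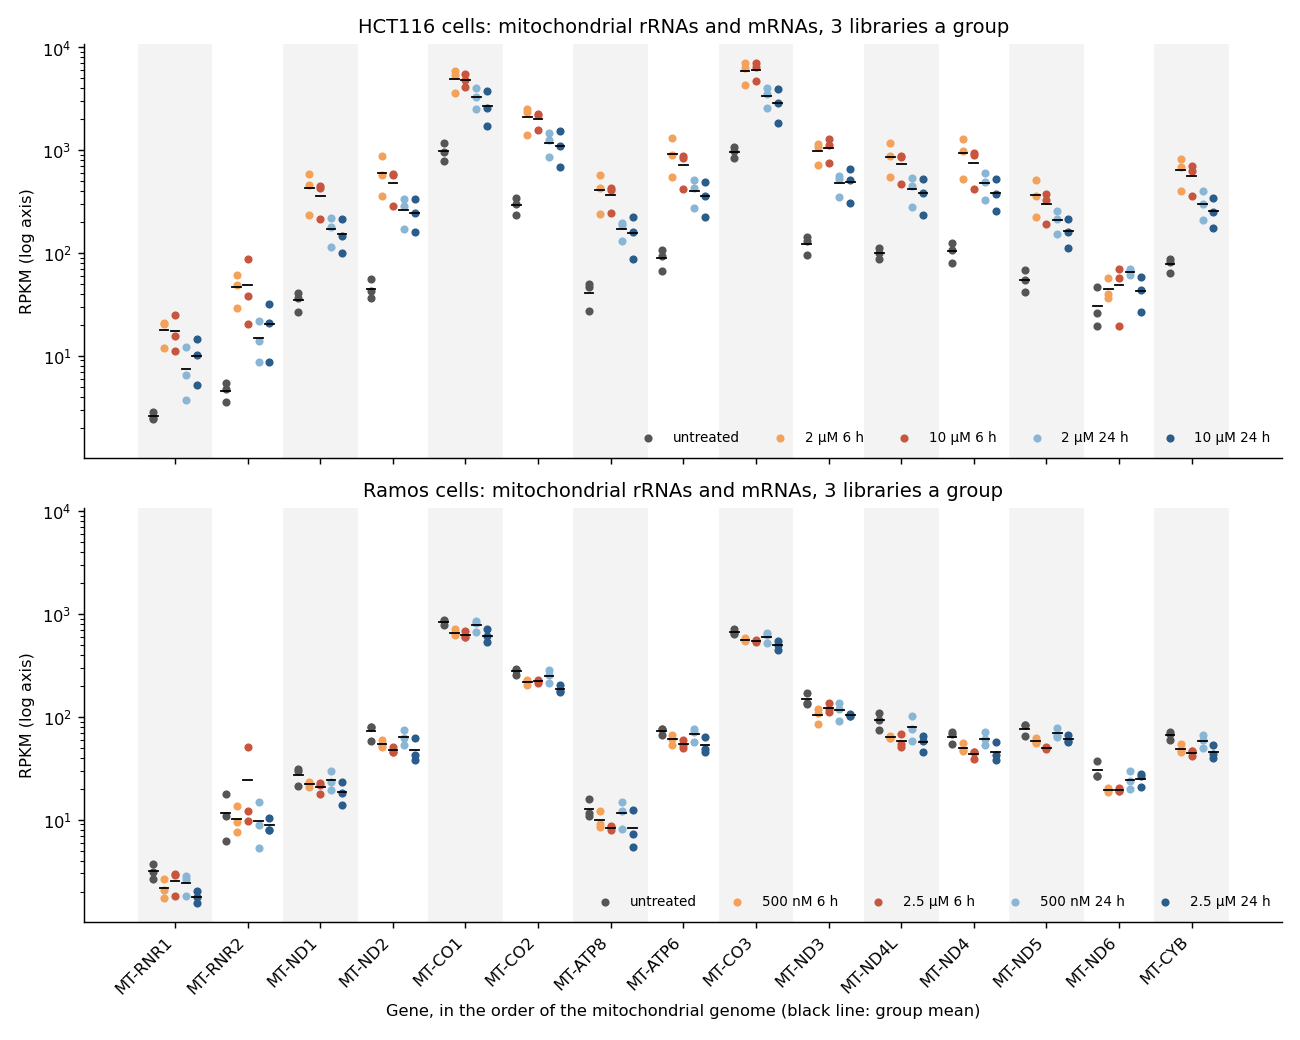
RPKM (log axis) of the 2 rRNAs and 13 mRNAs in genome order, with HCT116 libraries in the upper panel and Ramos libraries in the lower one; points are single libraries (3 per group) and black lines are group means. In HCT116 cells every treated library lies above every untreated one for each heavy strand mRNA and both rRNAs, while in Ramos cells the groups lie close together.

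The mitochondrial heavy strand mRNAs rose in HCT116 cells treated with Omomyc, at both doses and both times. Their summed level was 2946, 3374 and 2388 RPKM in the untreated libraries. It was 13194, 20334 and 23862 RPKM after 6 h with 2 μM Omomyc, and 20347, 13760 and 20530 RPKM after 6 h with 10 μM. At 24 h, it was 11134, 7928 and 13151 RPKM with 2 μM and 9116, 5916 and 12787 RPKM with 10 μM. No treated library overlapped the untreated ones, and the ratios of group means were 6.59, 6.27, 3.70 and 3.19 in that order, with no test made on the sum. Mitochondrial genes took 0.110 to 0.158% of RPKM times gene length in untreated HCT116 libraries and 0.259 to 1.04% in treated ones. In bulk RNA, fewer cells of a type and less RNA per cell cannot be told apart, and a rise in these transcripts cannot be told apart from a fall in the rest of the RNA. The sum of RPKM over all genes also moved: it was 593633 to 660769 in untreated HCT116 libraries, 742468 to 836899 in the 2 μM 6-h libraries and 791845 to 1051040 in the 10 μM 6-h libraries. The sum over nuclear protein-coding genes lay between 405775 and 456749 in all 15. It was 405775 to 426077 in the 10 μM 6-h libraries, below the untreated 437498 to 442985. With every library set to an equal sum over genes outside the mitochondrial chromosome, the ratios were 5.32, 4.53, 3.35 and 2.85. With an equal sum over nuclear protein-coding genes, a choice made after seeing the data, they were 6.53, 6.64, 3.72 and 3.19.

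All 12 heavy strand mRNAs rose in each of the 4 HCT116 comparisons with untreated cells (limma on log2 values, adjusted over all genes tested). At 2 μM for 6 h, 22 of the 37 genes passed the filter on low values and 16 rose, with none falling. Over all genes tested there, 15.5% rose, and 47.3% changed in either direction. At 10 μM for 6 h, 17 of 20 tested mitochondrial genes rose, against 8.84% of all genes (30% in either direction). At 24 h, 15 of 19 rose with 2 μM, against 16.6% of all genes (27.3% in either direction), and 16 of 18 rose with 10 μM, against 19.5% of all genes (35.2% in either direction). These counts include 2, 3, 0 and 2 tRNAs, some of which passed the filter only through the treated group. The 12 heavy strand mRNAs and 2 rRNAs passed in every comparison. Libraries of the 2 groups did not overlap for 15, 17, 16 and 16 of the tested mitochondrial genes in these comparisons, beside 57.8, 50.2, 44.9 and 49.3% of all genes. The median log2 change of the heavy strand mRNAs was 3.01, 2.81, 2.02 and 1.87 in the 4 comparisons, where that of all genes was -0.12, -0.11, 0.04 and 0.02.

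**Figure D2:**
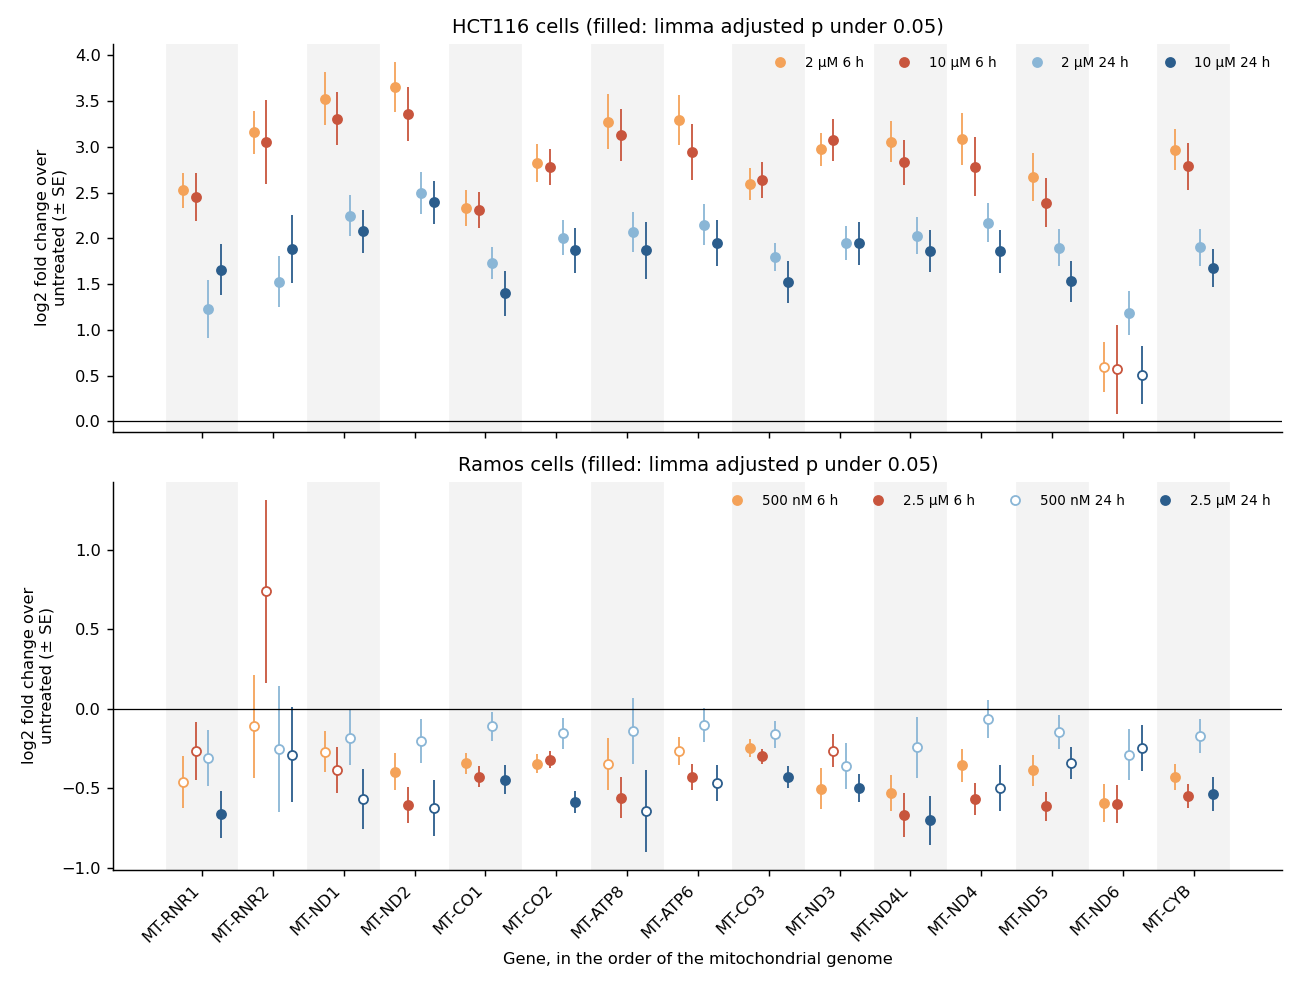
Log2 fold change over the untreated cells of the line, with its standard error, for the 2 rRNAs and 13 mRNAs, in the 4 HCT116 and 4 Ramos comparisons. The tRNAs are not drawn. Filled points passed an adjusted p of 0.05 (limma). All 12 heavy strand mRNAs are filled and above 0 in the HCT116 comparisons, and MT-ND6 is filled in 1 of those 4.

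Among complex I genes, MT-ND2 had the largest change of any mitochondrial mRNA in all 4 comparisons. It was at 42.8, 55.8 and 36.4 RPKM in untreated HCT116 libraries, at 359, 570 and 880 RPKM after 6 h with 2 μM Omomyc and at 578, 284 and 588 RPKM after 6 h with 10 μM. After 24 h, it was at 284, 170 and 332 RPKM with 2 μM and at 244, 160 and 333 RPKM with 10 μM. Every treated library was above every untreated one. The log2 changes of MT-ND2 were 3.66 (SE 0.27, adjusted p = 2.8e-05), 3.36 (SE 0.29, adjusted p = 0.00059), 2.50 (SE 0.23, adjusted p = 0.00034) and 2.39 (SE 0.23, adjusted p = 0.00011) by limma. MT-ND1, at the start of the same region, followed with log2 changes of 3.53, 3.31, 2.25 and 2.08. MT-ND3, MT-ND4 and MT-ND4L rose by 1.86 to 3.09 on the log2 scale over the 4 comparisons, and MT-ND5 by 1.53 to 2.67. MT-ND4L and MT-ND4 share 7 bases.

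Complex IV genes started highest, and MT-CO1 had the smallest log2 change of the heavy strand mRNAs. MT-CO1 rose to 3621, 5359 and 5957 RPKM after 6 h with 2 μM Omomyc and to 5524, 4149 and 4803 RPKM after 6 h with 10 μM. It stood at 3313, 2498 and 4005 RPKM after 24 h with 2 μM and at 2576, 1710 and 3747 RPKM after 24 h with 10 μM. All 12 treated libraries were above the 3 untreated ones. The log2 changes of MT-CO1 were 2.33 (SE 0.20), 2.31 (SE 0.19), 1.73 (SE 0.18) and 1.40 (SE 0.25), with limma adjusted p of 4.7e-05, 0.00054, 0.00049 and 0.0023, the smallest of the 12 in each comparison. Its share of the summed mRNA RPKM was 32.5 to 34.4% in untreated libraries and 24.9 to 27.4%, 23.4 to 30.03%, 29.6 to 31.3% and 28.1 to 29.2% in the treated groups. In Ramos cells, that share lay between 32.7 and 35.9% in all 15 libraries. MT-CO2 rose by 2.82, 2.78, 2.01 and 1.87 and MT-CO3 by 2.59, 2.64, 1.79 and 1.52 on the log2 scale in HCT116 cells.

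MT-CYB, the mitochondrially encoded subunit of complex III, rose by 2.97, 2.79, 1.90 and 1.67 on the log2 scale. MT-ATP6 rose by 3.29, 2.94, 2.15 and 1.95. MT-ATP8 rose by 3.27, 3.13, 2.07 and 1.87. MT-ATP8 is only 207 bases long and shares 46 of them with MT-ATP6, so reads in the shared stretch could have been counted for either gene.

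The 12 heavy strand mRNAs moved together from library to library as well as from group to group. In the 4 treated HCT116 groups, a single library was the lowest of its 3 for all 12 of these genes: replicate 1 at 2 μM for 6 h, and replicate 2 in the other 3 groups. In untreated HCT116 cells, replicate 3 was lowest for all 12 and replicate 2 highest for all 12. The highest library exceeded the lowest by 1.33- to 2.56-fold for single genes within the treated groups. Leaving out any 1 library changed neither the direction nor the call of any of the 12 in the 4 comparisons.

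For the light strand mRNA, 1 of the 4 comparisons passed. MT-ND6 was at 26.003, 46.4 and 19.6 RPKM in untreated HCT116 libraries, at 36.4, 39.7 and 57.4 RPKM after 6 h with 2 μM Omomyc and at 69.6, 57.2 and 19.6 RPKM after 6 h with 10 μM. At 24 h, it was at 66.5, 61.6 and 69.7 RPKM with 2 μM and at 43.6, 26.7 and 58.6 RPKM with 10 μM. The groups overlapped except at 2 μM for 24 h, where all 3 libraries were above the untreated ones. There, MT-ND6 rose by 1.18 on the log2 scale (SE 0.24, limma adjusted p = 0.0085), a call that was lost without a filter on low values (adjusted p = 0.070) and in a single fit over the 5 HCT116 groups (adjusted p = 0.089). Its log2 changes in the other 3 comparisons were 0.59 (95% interval -0.02 to 1.21, limma adjusted p = 0.10) at 2 μM for 6 h, 0.57 (interval -0.57 to 1.70, limma adjusted p = 0.41) at 10 μM for 6 h and 0.50 (interval -0.21 to 1.22, limma adjusted p = 0.25) at 10 μM for 24 h. In each of these 3, leaving out 1 library gave a call. Without untreated replicate 2, the change was 0.93 (limma adjusted p = 0.0077) at 2 μM for 6 h and 0.84 (limma adjusted p = 0.049) at 10 μM for 24 h, and without replicate 3 of the 10 μM 6-h group, it was 1.12 (limma adjusted p = 0.014). By the depth estimate, MT-ND6 corresponded to about 192 to 1208 reads per library across the series, though its values were not whole reads with the gene length used.

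The balance of the strands differed between treated and untreated HCT116 libraries. The ratio of that sum to MT-ND6 was 72.7 to 122 in untreated libraries. It was 363 to 512 after 6 h with 2 μM Omomyc, 241 to 1048 after 6 h with 10 μM, 129 to 189 after 24 h with 2 μM and 209 to 221 after 24 h with 10 μM. No treated library overlapped the untreated ones. For the genes that flank MT-ND6, the log2 change in the ratio of MT-CYB to MT-ND6 was 2.38, 2.22, 0.71 and 1.17 in the 4 groups, and that of MT-ND5 to MT-ND6 was 2.08, 1.83, 0.71 and 1.03. Each of these 8 ratios was higher in 3 of 3 treated than in 3 of 3 untreated libraries, with p = 0.1 by a 2-sided exact permutation test, the smallest value that 3 against 3 libraries allow, and 0.2 after adjustment over 16 relations. In Ramos cells, the ratio of the sum to MT-ND6 was 69.3 to 91.9 in untreated libraries. Both 6-h groups lay above that range without overlap, at 94.5 to 105 with 500 nM and 92.6 to 96.5 with 2.5 μM, and the ratios of group means were 1.20 and 1.16. The 24-h groups overlapped it, at 82.2 to 95.3 with 500 nM and 64.5 to 73.7 with 2.5 μM. For MT-CYB and MT-ND5, none of the 8 ratios in Ramos cells had an exact permutation p below 0.2. Whether the counts were made by strand is not given in the sources used here. If they were not, reads of MT-ND6 and reads of heavy strand precursors that cross it could not be told apart.

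**Figure D3:**
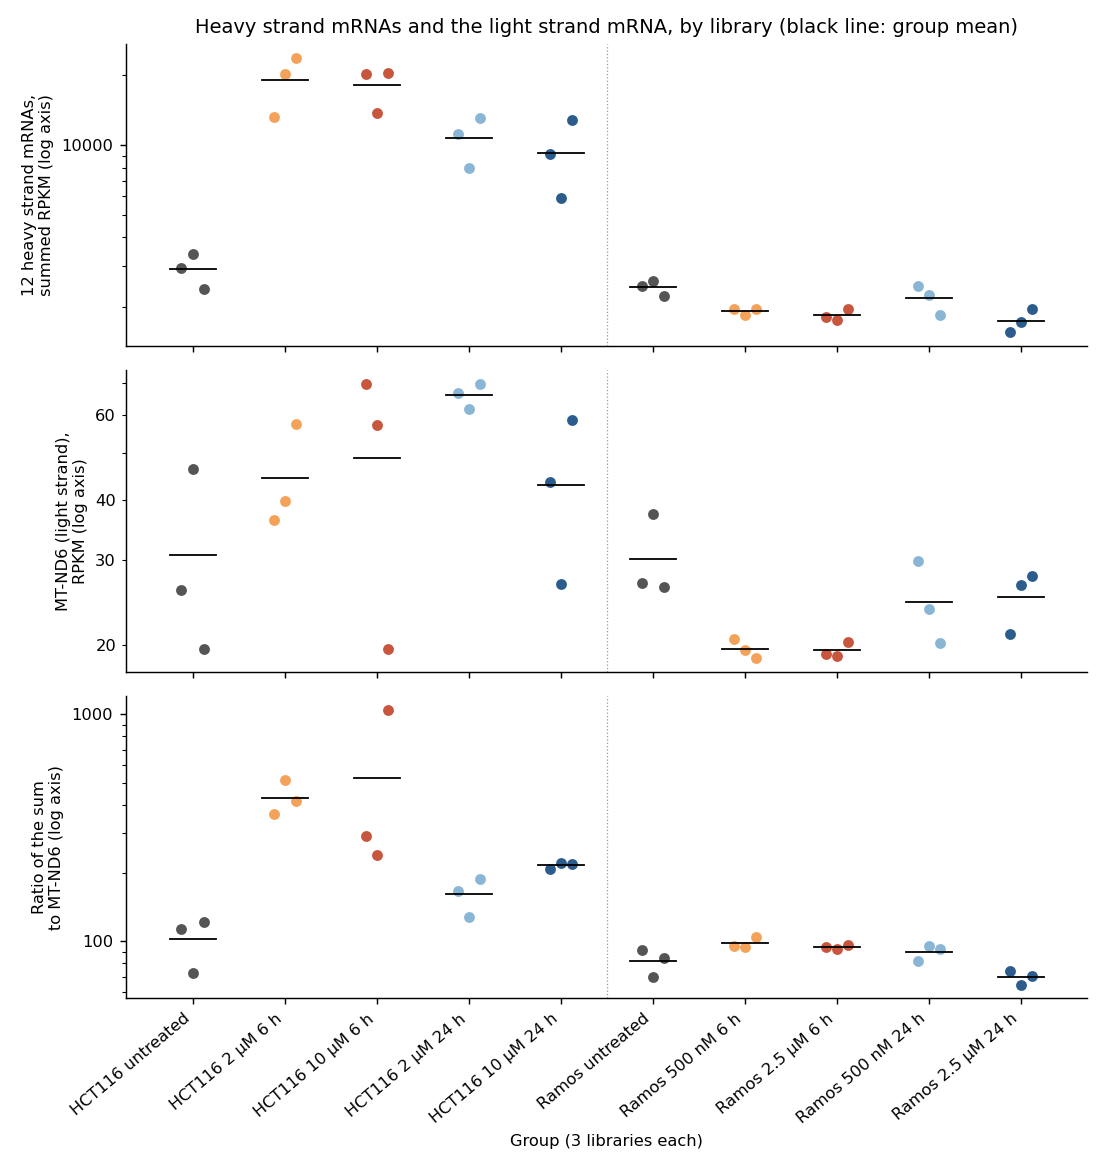
Summed RPKM of the 12 heavy strand mRNAs, RPKM of MT-ND6 and the ratio of the 2 in each of the 30 libraries (log axes), arranged by the 10 groups. The heavy strand sum and the ratio are higher in all 12 treated HCT116 libraries than in the 3 untreated ones, while MT-ND6 overlaps in 3 of the 4 groups; in Ramos cells the ratio is above the untreated range in both 6-h groups and lies between 64.5 and 105 in all libraries.

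Both mitochondrial rRNAs rose in HCT116 cells. MT-RNR2 was at 4.73, 5.49 and 3.52 RPKM in untreated libraries, at 29.5, 48.3 and 60.8 RPKM after 6 h with 2 μM Omomyc and at 38.5, 20.4 and 87.7 RPKM after 6 h with 10 μM. At 24 h, it was at 14.0, 8.70 and 21.9 RPKM with 2 μM and at 21.0, 8.67 and 31.6 RPKM with 10 μM. The treated libraries of each group lay above the untreated ones but were far apart among themselves, most of all at 10 μM for 6 h. The log2 changes of MT-RNR2 were 3.16, 3.05, 1.53 and 1.88, with limma adjusted p of 2.8e-05, 0.0037, 0.0051 and 0.0038, and those of MT-RNR1 were 2.53, 2.46, 1.23 and 1.66, with limma adjusted p of 2.8e-05, 0.0012, 0.021 and 0.0018. At 2 μM for 24 h, the call of MT-RNR1 was lost without untreated replicate 1 or 3 or treated replicate 1 (highest limma adjusted p 0.065). Over all alternatives run, the highest limma adjusted p there was 0.12 for MT-RNR1 and 0.076 for MT-RNR2, so both calls depended on the processing. The efficiency of rRNA depletion sets these levels along with the RNA itself, and its part in the result was not tested. In Ramos cells, MT-RNR2 varied from 5.37 to 17.999 RPKM except in 1 library at 51.2 RPKM, replicate 1 of the 2.5 μM 6-h group.

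The tRNA genes were at the edge of detection. Of 660 values (22 genes in 30 libraries), 114 were above 0, and all 114 came out as whole reads within 0.05 reads, from 1 to 13 with a median of 2. In 54 of the 114, the value was a single read. For a gene of 69 bases, 1 read was worth 0.335 to 0.778 RPKM, and a value of 0 allows a level of up to 1.004 to 2.33 RPKM (3 reads), counting error only. Of 941 nuclear genes of the same lengths (59 to 75 bases), 902 were also listed at 0 in all 30 libraries. RNA isolation on columns and fragment-based library preparation can retain few RNAs this short, and whether that accounts for these low values was not tested. What the remaining reads come from, mature tRNA or uncut precursor, was not tested either.

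What tRNA signal there was lay mostly in HCT116 cells and on the light strand. The summed light strand tRNAs were at 0.727 to 4.20 RPKM in untreated HCT116 libraries and at 2.53 to 12.03 RPKM in the 12 treated ones, while the summed heavy strand tRNAs were at 0.731 to 2.25 and 1.28 to 6.78 RPKM. In Ramos cells, the median over 15 libraries was 0 for either strand. MT-TN had 0, 8 and 1 reads in untreated HCT116 libraries and 10, 5 and 7 reads after 6 h with 2 μM Omomyc. It had 8, 6 and 5 reads after 6 h with 10 μM, 0, 3 and 12 reads after 24 h with 2 μM and 9, 13 and 8 reads after 24 h with 10 μM. MT-TA had 0, 3 and 1 reads in untreated libraries and 1 to 9 reads in each treated one. On the heavy strand, MT-TF (phenylalanine) had 2, 0 and 0 reads in untreated libraries and at most 5 reads in any other, and MT-TW had none in HCT116 cells.

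By limma, MT-TA and MT-TN rose at 2 μM for 6 h (log2 changes of 1.35 and 2.01, adjusted p = 0.045 and 0.014). MT-TA, MT-TN and MT-TF rose at 10 μM for 6 h (2.11, 1.90 and 1.34, adjusted p = 0.015, 0.042 and 0.043). MT-TA and MT-TN rose at 10 μM for 24 h (1.18 and 2.21, adjusted p = 0.022 and 0.0090), and no tRNA rose at 2 μM for 24 h. MT-TA and MT-TF averaged 0.456 and 0.240 RPKM in untreated HCT116 cells, under the filter of 0.5 RPKM, so they were tested only through the treated groups in which they were high, and their calls are given as a description. All 7 tRNA calls were lost without a filter on low values, and each but that of MT-TN at 10 μM for 24 h was lost on leaving out at least 1 library: any 1 of 4 libraries for MT-TA at 2 μM for 6 h (highest limma adjusted p 0.16), replicate 1 of the 2 μM 6-h group for MT-TN (adjusted p = 0.054), and any 1 of 3 or 4 libraries for the calls at 10 μM. Reads of MT-TE, next to MT-ND6, numbered 0 to 4 in HCT116 libraries and 0 in all Ramos libraries.

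**Figure D4:**
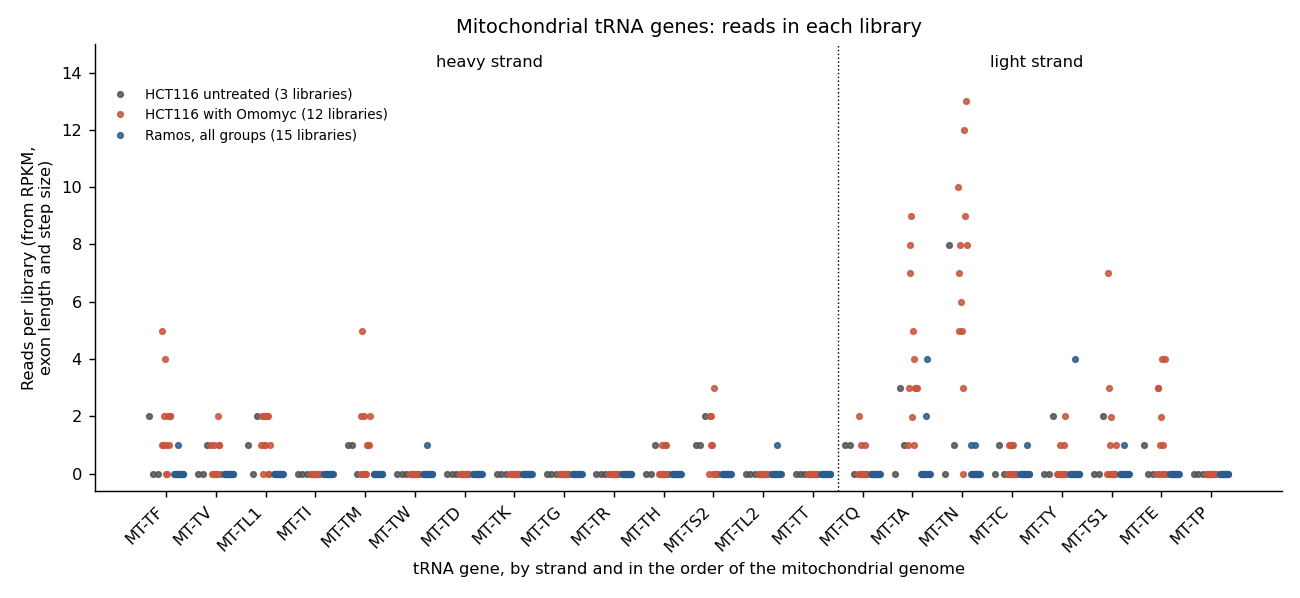
Reads per library for each of the 22 mitochondrial tRNAs, heavy strand genes first and light strand genes after them; grey points are the 3 untreated HCT116 libraries, red points the 12 treated HCT116 libraries and blue points the 15 Ramos libraries. The values lie between 0 and 13 reads, with MT-TN and MT-TA the highest and 7 genes at 0 throughout.

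Between 6 and 24 h of treatment with 2 μM Omomyc in HCT116 cells, most of the heavy strand transcripts fell while MT-ND6 rose. Of 23 mitochondrial genes tested, 13 fell, against 9.85% of all genes, and 1 rose, against 30.9% of all genes (40.8% in either direction). The genes that fell were 11 heavy strand mRNAs and both rRNAs, led by MT-RNR2 (log2 change -1.63, limma adjusted p = 0.0044) and, among mRNAs, MT-ND1 (-1.28, limma adjusted p = 0.013). MT-CO1 was the 1 heavy strand mRNA that did not pass. MT-ND6 rose by 0.59 (limma adjusted p = 0.012), and its libraries at 24 h were all above those at 6 h. That call of MT-ND6 was lost without a filter on low values (limma adjusted p = 0.069) and in a single fit over the 5 HCT116 groups (limma adjusted p = 0.28). The count of 14 fell to 2 without a filter on low values. It fell to 6 without replicate 3 of the 6-h group and to 7 without replicate 2 of the 24-h group. Only MT-RNR2 and MT-ND3 passed under every alternative run (highest limma adjusted p 0.042 and 0.045). With 10 μM, none of 20 tested genes passed by limma, against 7.86% of all genes (5.8% higher and 2.06% lower), although 13 had an unadjusted p under 0.05. There, 8 passed without replicate 2 of the 6-h group and 6 without replicate 3 of that group. No mitochondrial gene differed detectably between the doses in HCT116 cells. By limma, none of 23 mitochondrial genes passed between 10 and 2 μM at 6 h (0% of all genes, and 0 of the 23 at an unadjusted p under 0.05) and none of 19 at 24 h (0.18% of all genes, 0.14% higher, and 2 of the 19 unadjusted). For MT-ND2, the 10 μM libraries (284 to 588 RPKM at 6 h) lay within or near the range of the 2 μM libraries (359 to 880 RPKM).

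In Ramos cells, the mitochondrial mRNAs fell slightly after 6 h with Omomyc. The summed heavy strand mRNAs were at 2463, 2586 and 2231 RPKM in untreated libraries, at 1959, 1844 and 1959 RPKM after 6 h with 500 nM and at 1817, 1756 and 1955 RPKM after 6 h with 2.5 μM. At 24 h, they were at 2457, 2258 and 1853 RPKM with 500 nM and at 1551, 1718 and 1964 RPKM with 2.5 μM. All treated groups except that at 500 nM for 24 h were below the untreated libraries without overlap, and the ratios of group means were 0.792, 0.759, 0.902 and 0.719. With an equal sum over genes outside the mitochondrial chromosome, they were 0.847, 0.838, 0.945 and 0.833. The sum of RPKM over all genes was also lower, at 783788 to 828045 RPKM in the 2.5 μM 24-h libraries against 879661 to 973736 RPKM in untreated ones.

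Of 15 mitochondrial genes tested in Ramos cells (13 mRNAs and 2 rRNAs), 10 fell at 500 nM for 6 h, against 9.73% of all genes (23.6% in either direction). At 2.5 μM for 6 h, 11 fell, against 10.7% of all genes (27.9% in either direction), and at 2.5 μM for 24 h, 7 fell, against 1.31% of all genes (4.61% in either direction). None rose in these 3 comparisons, where 13.8, 17.3 and 3.3% of all genes did. Libraries did not overlap for 9, 11 and 8 of the 15 genes, beside 41.4, 44.7 and 27.4% of all genes. At 500 nM for 24 h, none passed by limma, against 0.0146% of all genes, and 1 of 15 had an unadjusted p under 0.05, and none had libraries that did not overlap (11.5% of all genes). The count at 500 nM for 6 h was 6 without untreated replicate 2 or without replicate 2 of the treated group. The count at 2.5 μM for 24 h was 12 without untreated replicate 3, 3 without untreated replicate 1 or 2 and 1 without treated replicate 1 or 2.

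The changes in Ramos cells were small for each gene and took in both strands. MT-ND6 was at 26.8, 37.3 and 26.4 RPKM in untreated Ramos libraries, at 20.5, 19.5 and 18.7 RPKM after 6 h with 500 nM Omomyc and at 19.2, 19.0 and 20.3 RPKM after 6 h with 2.5 μM. At 24 h, it was at 29.9, 23.7 and 20.1 RPKM with 500 nM and at 21.1, 26.6 and 27.8 RPKM with 2.5 μM. It fell by 0.59 and 0.60 on the log2 scale at 6 h (limma adjusted p = 0.0080 and 0.0067), and all 6 libraries were below the untreated ones. At 24 h, the groups overlapped. MT-CO1 fell by 0.34, 0.43 and 0.45 on the log2 scale at 500 nM for 6 h, 2.5 μM for 6 h and 2.5 μM for 24 h (limma adjusted p = 0.0063, 0.0018 and 0.032). MT-ND4L had the largest fall of the heavy strand mRNAs in each of these 3 comparisons (log2 changes of -0.53, -0.67 and -0.70). MT-CO2, MT-CO3 and MT-CYB also fell in all 3, by 0.25 to 0.59 on the log2 scale, and MT-ND1 passed in none. MT-RNR1 fell by 0.67 at 2.5 μM for 24 h (limma adjusted p = 0.041), a call that was lost without any 1 of 5 libraries. At that dose and time, every other call was also lost under at least 1 alternative. The highest limma adjusted p ran from 0.068 for MT-CO2 to 0.17 for MT-ND4L. At 500 nM for 6 h, the calls of MT-CO3, MT-ND4L and MT-ND6 were lost under some alternatives (highest limma adjusted p 0.15, 0.067 and 0.060). So was that of MT-ND4L at 2.5 μM for 6 h (0.062).

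Between 6 and 24 h in Ramos cells, 1 of 15 genes passed with 500 nM (MT-ND5, log2 change 0.24, limma adjusted p = 0.045), against 11.9% of all genes higher and 25.4% in either direction. That count was 10 without replicate 3 of the 24-h group, 2 without replicate 1 of the 6-h group and 0 without replicate 2 or 3 of the 6-h group or replicate 1 or 2 of the 24-h group. With 2.5 μM, MT-ND6 (0.35) and MT-ND5 (0.27) rose, and MT-CO2 and MT-ND3 fell by 0.27 and 0.24 on the log2 scale (limma adjusted p = 0.022, 0.0085, 0.0079 and 0.028), against 12.7% of all genes higher and 10.4% lower (23% in either direction). Without replicate 1 of the 6-h group, 2 of these 4 calls were made. Between the doses, none of 15 passed by limma at 6 h (0.429% of all genes, with 3 of 15 at an unadjusted p under 0.05). At 24 h, MT-CO2 was lower with 2.5 μM by 0.43 on the log2 scale (limma adjusted p = 0.040), against 1.86% of all genes lower and 4.25% in either direction. That call was lost without any 1 library other than replicate 3 of the 500 nM group, and without that library 4 genes passed.

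The untreated lines differed in 6 mitochondrial transcripts. Of 16 tested, 3 were higher and 3 lower in HCT116 cells than in Ramos cells, where 45.7% of all genes were higher and 39% lower (84.6% in either direction). MT-ATP8 was at 46.4, 49.8 and 27.2 RPKM in HCT116 libraries and at 15.9, 11.6 and 10.8 RPKM in Ramos libraries, with no overlap and a log2 difference of 1.62 (SE 0.25, limma adjusted p = 0.00057). MT-CO3 (0.51, limma adjusted p = 0.0016) and MT-ND4 (0.67, limma adjusted p = 0.0095) were also higher in HCT116 cells. MT-RNR2, MT-ND2 and MT-ND5 were lower, with log2 differences of -1.17, -0.70 and -0.50 (limma adjusted p = 0.017, 0.0082 and 0.037). With each library set to an equal sum of RPKM, which moved the median of all genes from 0.09 to 0.65, 10 genes were higher and none lower, and MT-ND5 turned to 0.076. The call of MT-RNR2 was also lost without HCT116 replicate 1 or 3 (limma adjusted p = 0.054 and 0.078), and that of MT-ND5 without HCT116 replicate 1 or 3 or Ramos replicate 1 or 2 (highest limma adjusted p 0.11). MT-ND6 did not separate the lines, with overlapping ranges of 19.6 to 46.4 and 26.4 to 37.3 RPKM.

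The response of the mitochondrial genes to Omomyc differed between the lines in a direct test of the difference, made at the nearest doses (2 μM in HCT116 cells and 2.5 μM in Ramos cells). At 6 h, 15 of 18 genes tested had a larger change in HCT116 cells, against 12.2% of all genes in that direction and 40.6% in either. At 24 h, 15 of 16 did, against 6.81% and 16.3%. The difference in log2 change was 4.26 and 3.12 for MT-ND2 and 2.76 and 2.18 for MT-CO1 at 6 and 24 h (limma adjusted p = 1.2e-05, 0.00062, 1.2e-05 and 0.00060). For MT-ND6, it was 1.20 and 1.43 (limma adjusted p = 0.023 and 0.020). The call of MT-ND6 at 6 h was lost without untreated HCT116 replicate 1, replicate 3 of the 2 μM 6-h group or untreated Ramos replicate 2 (highest limma adjusted p 0.056), and that at 24 h without a filter on low values or with every group of a line in the fit (highest limma adjusted p 0.060). Both calls of MT-RNR2 were also lost on leaving out a single library (highest limma adjusted p 0.0598 at 6 h and 0.082 at 24 h). Over all alternatives run, the highest limma adjusted p was 0.074 and 0.16 for MT-RNR2 at 6 and 24 h. For MT-ND6 at 6 h, it was 0.069. The lines also differ in dose by the labels, though not by the methods, and possibly in delivery. These cannot be told apart from the line itself.

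Nuclear copies of mitochondrial genes can share reads with them. Copies were taken by symbol, as MT, a mitochondrial gene name, then P and a number. Copies under other names, including any of MT-RNR2, were not looked at. The table held 393 nuclear genes with such symbols, of which 282 were at 0 in all 30 libraries and 3 had a mean of at least 2 RPKM. These 3 lie on chromosome 1 and are near-identical to their mitochondrial genes: MTND2P28 to MT-ND2 (98.4% of 1042 bases, with up to 266 bases in a row without a mismatch), MTCO1P12 to MT-CO1 (98.7% of 1542 bases) and MTATP6P1 to MT-ATP6 (98.5% of 681 bases), as the pair of sequences above shows for its first 46 bases. MTND2P28 stood at 7.14 to 9.43% of MT-ND2 over the 10 group means, MTCO1P12 at 0.398 to 0.610% of MT-CO1 and MTATP6P1 at 6.00 to 16.4% of MT-ATP6. All 3 copies rose in all 4 HCT116 comparisons (limma adjusted p at most 0.0036), with ratios of means of 10.6, 9.63, 5.14 and 4.74 for MTND2P28, where those of MT-ND2 were 13.4, 10.7, 5.83 and 5.46. Adding the copy to MT-ND2 gave 13.2, 10.6, 5.77 and 5.40. Reads of the copies and of the mitochondrial genes cannot be told apart in this table.

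**Figure D5:**
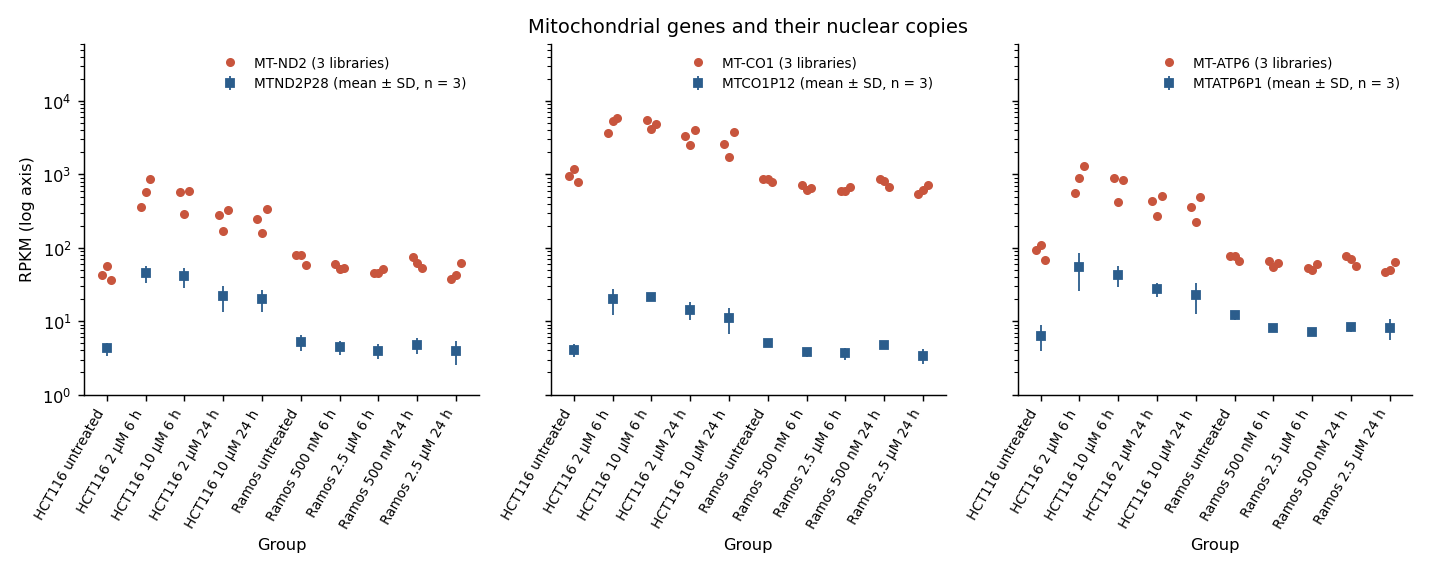
RPKM (log axis) of MT-ND2, MT-CO1 and MT-ATP6 in each library (points) beside the group mean and SD of their nuclear copies MTND2P28, MTCO1P12 and MTATP6P1, for the 10 groups. The copies lie below the mitochondrial genes in every group and are higher in the treated than in the untreated HCT116 groups, as the mitochondrial genes are.

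Nuclear genes for mitochondrial transcription and RNA processing changed in both directions in HCT116 cells at both times and in Ramos cells at 6 h. Whether their counts differ from the shares over all genes was not tested, and at 24 h in HCT116 cells they were near those shares. The list of 31 genes, all of them tested, includes the RNA polymerase POLRMT, the DNA-packaging factor TFAM, the mRNA-stabilizing pair LRPPRC and SLIRP and the FASTK family of RNA-binding proteins. In HCT116 cells, 9, 5, 6 and 8 of the 31 rose and 4, 3, 3 and 3 fell in the 4 comparisons with untreated cells, beside the 15.5, 8.84, 16.6 and 19.5% of all genes that rose and the 31.8, 21.2, 10.8 and 15.7% that fell. At 2 μM for 24 h, SLIRP rose most (log2 change 0.43, limma adjusted p = 0.0014) and TFAM fell most (-0.22, limma adjusted p = 0.015). At 10 μM for 24 h, FASTKD2, which binds mitochondrial RNA, rose most (0.51, limma adjusted p = 0.00021) and LRPPRC fell most (-0.24, limma adjusted p = 0.0041). In Ramos cells, 4, 3, 0 and 1 of the 31 rose, beside 13.8, 17.3, 0.0146 and 3.3% of all genes, and 2, 2, 0 and 0 fell, beside 9.73, 10.7, 0 and 1.31%. The 1 that rose at 2.5 μM for 24 h was POLRMT (0.24, limma adjusted p = 0.047). By its group means, POLRMT was also higher in HCT116 cells after 24 h, though no test value is given for it there. In HCT116 cells, it stood at 24.2 ± 0.749 RPKM untreated (SD, n = 3). After 24 h, it was at 32.5 ± 4.72 RPKM with 2 μM and at 32.8 ± 1.39 RPKM with 10 μM. At 6 h, it was at 24.2 ± 1.38 and 28.4 ± 6.77 RPKM with these doses.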

How the data were processed

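RNA-Seq libraries (stranded total RNA, depleted of rRNA) from HCT116 and Ramos cells were summarized by the authors, who deposited 1 table of RPKM for 57992 genes in 30 libraries. RSEM is named in the submitters' processing notes. The aligner, genome build, annotation, strand setting and filters are not given in the sources used here. Symbols, lengths, positions and sequences came from GENCODE release 29 (GRCh38), which held 57388 of the genes. Groups followed the labels.

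RPKM values were tested as log2(RPKM + 0.5) with limma 3.58.1 in R 4.3.3 (eBayes with trend). Each of 17 comparisons used only the libraries compared, genes with a mean of at least 0.5 RPKM, and Benjamini-Hochberg adjustment over all genes tested with a threshold of 0.05. A further 2 fits tested the line by treatment interaction. Fold changes on this scale understate those of low genes. Ratios to MT-ND6 were tested with exact permutation tests (scipy 1.17.1). The fits were tested on simulated data.

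Whole reads were recovered for short genes by multiplying RPKM by gene length: 81.8 to 89.9% of values of nuclear genes under 400 bases were whole within 0.02 reads. No count test was made, since many values of longer genes, MT-ND6 among them, did not come out whole with this annotation. The limit given for a value of 0 covers counting error only, and the intervals of log2 changes come from the spread between libraries.

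All 37 genes were accounted for. The 13 mRNAs, the 2 rRNAs, any tRNA past the threshold, MT-ND6 and the highest and lowest changes were named, with nuclear copies of at least 2 RPKM on average and the largest change each way among 31 RNA processing genes at 24 h. MT-TE and MT-TW were added for their positions. The members and lists were chosen with earlier results of these data known. Alternatives varied the pseudocount, the filter, the scaling, the trend, the replicate block, the libraries fitted and each single library. Rescaling to an equal sum over nuclear protein-coding genes was chosen after seeing the data. Replicate numbers did not pair the libraries: deviations of same-numbered libraries correlated at -0.30 to 0.18 over 51 pairs, and in none of 17 comparisons was every pair above 0.1.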

Additional observations from a re-analysis of the deposited data

Results flagged for a closer look

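The change with Omomyc differed between HCT116 and Ramos cells by a test of the difference itself (limma, treated minus untreated in HCT116 cells less the same in Ramos cells). At 6 h, 15 mitochondrial genes passed, where 12.2% of all genes did in that direction and 40.6% in either, with differences in log2 change of 4.26 for MT-ND2, 2.76 for MT-CO1 and 1.20 for MT-ND6. At 24 h, 15 passed, where 6.81% and 16.3% of all genes did, with 3.12 for MT-ND2, 2.18 for MT-CO1 and 1.43 for MT-ND6. All 30 of these differences were positive, that is, the change was higher in HCT116 cells. The doses differed by the labels (2 against 2.5 μM), while the methods give 2.5 μM for HCT116 cells. The delivery may have differed too.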

How the results depend on the processing

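The rise of the 12 heavy strand mRNAs in HCT116 cells kept its direction and its call in all 4 comparisons under every alternative run. Counts of mitochondrial genes that passed, on leaving out 1 library at a time, ranged over 15 to 18, 14 to 18, 14 to 16 and 15 to 17 in the HCT116 comparisons with untreated cells, 6 to 12, 10 to 12, 0 to 0 and 1 to 12 in those of Ramos cells, 6 to 17, 0 to 8, 0 to 10 and 2 to 4 between 24 and 6 h, 0 to 0 for 3 of the dose comparisons, 0 to 4 for the dose at 24 h in Ramos cells, 4 to 7 between the untreated lines, and 13 to 16 and 14 to 15 for the interactions. The heavy strand sum over untreated ranged over 5.78 to 7.61, 5.76 to 7.04, 3.28 to 4.18 and 2.59 to 3.77 in HCT116 cells and 0.761 to 0.818, 0.730 to 0.785, 0.847 to 0.971 and 0.674 to 0.759 in Ramos cells. With no filter on low values, the counts were 3 at 500 nM for 6 h, 0 at 2.5 μM for 24 h, 2 between times at 2 μM in HCT116 cells, 0 and 0 between times at 500 nM and 2.5 μM, and 0 between doses at 24 h in Ramos cells. Without the trend, they were 5 at 500 nM for 6 h, 0 at 2.5 μM for 24 h, 0 and 1 between times and 0 between doses in Ramos cells. With a single fit over the 5 groups of each line, they were 11 at 2.5 μM for 24 h in Ramos cells, 8 between times at 10 μM in HCT116 cells, and 0 and 1 between times in Ramos cells. Replicate numbers are shared between groups without pairing the libraries. The fit with the replicate block gave 3 at 2.5 μM for 24 h in Ramos cells, 8 between times at 10 μM in HCT116 cells, 4 between times at 500 nM, 0 between doses at 24 h in Ramos cells and 10 between the untreated lines, and stayed within 1.5 times the count elsewhere. Between times at 500 nM, a filter of at least 2 RPKM and quantile normalization gave 2 each and both rescalings to an equal sum gave 0. Quantile normalization gave 0 between doses at 24 h in Ramos cells. Between the untreated lines, both equal-sum rescalings gave 10, all higher in HCT116 cells, and turned MT-ND5 from -0.50 to 0.076 and 0.079. These rescalings moved the median log2 change of all genes to -0.42 at 2 μM for 6 h, -0.56 at 10 μM for 6 h and 0.65 between the lines. Rescaling over genes outside the mitochondrial chromosome gave a heavy strand sum over untreated of 4.53 at 10 μM for 6 h and 0.847 at 500 nM for 6 h, 0.838 at 2.5 μM for 6 h and 0.833 at 2.5 μM for 24 h in Ramos cells. Over all alternatives, values of genes that had passed kept their direction and call 2589 times, lost the call 250 times and reversed 2 times. The causes were not tested. Depth limits the tRNAs, at 1 to 13 reads, and 3 libraries per group limit the rest.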
